A study of Mus musculus with 9 samples.

Results

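The angiogenic factors described here are secreted proteins that fat cells are known to release and that act on blood vessels: Vegfa, Vegfb, Vegfc, Angpt1, Angpt2, Angptl2, Angptl4, Hgf and Fgf2. They were taken by name, as every probe set (a group of short probes read as 1 signal) that the platform's probe table gives to these genes alone. Of the 9 genes, 8 had a probe set in that table, with 16 probe sets between them out of 45037 tested, and Angptl2 was not analysed here. No probe set shared between several symbols held a member. Transcripts were read on 9 Affymetrix arrays. The cells were white adipocytes differentiated in culture from the stromal-vascular fraction of inguinal fat, taken from C57BL6 males aged 30 to 35 days. On day 8 of differentiation, 3 samples had received 100 ng/ml PTH(1-34) for 4 h and 3 had received 100 ng/ml PTHrP(1-34) for 4 h; 3 were controls, with a vehicle not given in the sources used here. All 9 shared the same differentiation: 2 days in 1 µM rosiglitazone (an agonist of PPARγ), 0.5 µM isobutylmethylxanthine, 5 µg/ml insulin and 1 µM dexamethasone, then insulin with rosiglitazone, and from day 6 medium alone. The cells are a culture without vessels or blood flow, and the labels call the replicates biological without saying whether they came from separate mice or dishes, so p-values measure only the spread between these samples.

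Vessel growth is steered by secreted ligands and their receptors on endothelial cells. VEGF-A drives sprouting through the receptor encoded by Kdr, VEGF-B binds the receptor encoded by Flt1, and VEGF-C acts mainly on lymphatic vessels through the receptor encoded by Flt4. Angiopoietin 1, made by cells around vessels, activates the endothelial receptor Tek and steadies vessels, while angiopoietin 2 competes for that receptor and loosens them. HGF signals through Met, and FGF2 through the FGF receptors. ANGPTL4 belongs to the angiopoietin-like proteins, which do not bind Tek; it inhibits lipoprotein lipase, and its gene is a known target of the PPAR nuclear receptors. In fat, VEGF-A is the main vessel-forming signal of adipocytes and its gene responds to low oxygen and to cAMP, the messenger that rises when PTH or PTHrP activates their shared receptor.

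The angiopoietin genes and Vegfc were the members that fell. Angpt1 and Angpt2 fell with PTH, Angpt1 fell with PTHrP, and 1 of 3 Vegfc probe sets fell with each peptide. Hgf rose on 2 of its 3 probe sets when the arrays of both peptides were compared together with control. Over all 45037 probe sets, 1.37% fell with PTH, 1.2% fell with PTHrP, and 2% rose with both together. The brightest Vegfa probe set read higher on all 6 treated arrays than on all 3 controls, with a log2 change that did not pass the test in any of these comparisons (adjusted p = 0.194 with PTH, 0.163 with PTHrP and 0.0942 together, limma). Vegfb, Angptl4 and Fgf2 gave no call. Each of these calls was lost when any of at least 5 of the 9 arrays was left out. The Vegfc calls and that of Angpt1 with PTHrP were lost without any 1 of the 9.

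Promoter DNA is shown for Vegfa, the main vessel signal of fat, and for Vegfc and Hgf. Of the 3 Vegfc probe sets, 1 fell with each peptide, and it was not the brightest. Of the 3 Hgf probe sets, 2 rose, with both peptides together only. The sequences are the 250 bases before the most upstream start that RefSeq gives for each gene (build GRCm38.p6). They lie at chr17:46032378-46032627 on the minus strand for Vegfa, chr8:54077282-54077531 on the plus strand for Vegfc and chr5:16553245-16553494 on the plus strand for Hgf. Each reads 5′ to 3′ along the gene and ends at the last base before the start. Capitals mark matches on either strand to the Sp1 box GGGCGG.
Vegfa: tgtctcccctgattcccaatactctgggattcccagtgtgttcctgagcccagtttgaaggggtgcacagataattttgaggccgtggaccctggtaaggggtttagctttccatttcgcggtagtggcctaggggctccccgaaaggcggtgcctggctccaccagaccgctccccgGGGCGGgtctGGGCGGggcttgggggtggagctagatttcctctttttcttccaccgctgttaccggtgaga
Vegfc: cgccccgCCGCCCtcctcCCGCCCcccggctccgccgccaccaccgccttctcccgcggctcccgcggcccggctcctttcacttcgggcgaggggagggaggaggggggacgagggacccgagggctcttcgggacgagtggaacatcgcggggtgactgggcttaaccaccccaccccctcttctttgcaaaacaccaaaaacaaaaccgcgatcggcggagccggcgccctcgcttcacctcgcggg
Hgf: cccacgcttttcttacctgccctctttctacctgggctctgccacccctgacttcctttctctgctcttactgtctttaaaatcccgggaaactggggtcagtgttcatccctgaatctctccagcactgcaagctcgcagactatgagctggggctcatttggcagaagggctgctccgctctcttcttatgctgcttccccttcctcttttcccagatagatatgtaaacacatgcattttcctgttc
The Vegfa window held 2 Sp1 boxes, at 72 to 67 and 62 to 57 bases before the start, the Vegfc window held 2, at 243 to 238 and 232 to 227, and the Hgf window held 0. A pair of other motifs was searched on both strands, the half-site TGACG of the cAMP response element and the core ACGTG bound by hypoxia-inducible factors; they can overlap where TGACGTG occurs. Neither was in any of these 3 windows. In all, 6 member genes had a window, and among those not printed TGACG had 2 matches in Fgf2 and 1 in Angptl2. ACGTG was in none of the 6. Over the same window of 27025 genes, 33.0% held GGGCGG, 17.8% held TGACG and 16.5% held ACGTG. These counts describe letters in 1 short window per gene.

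**Figure D1:**
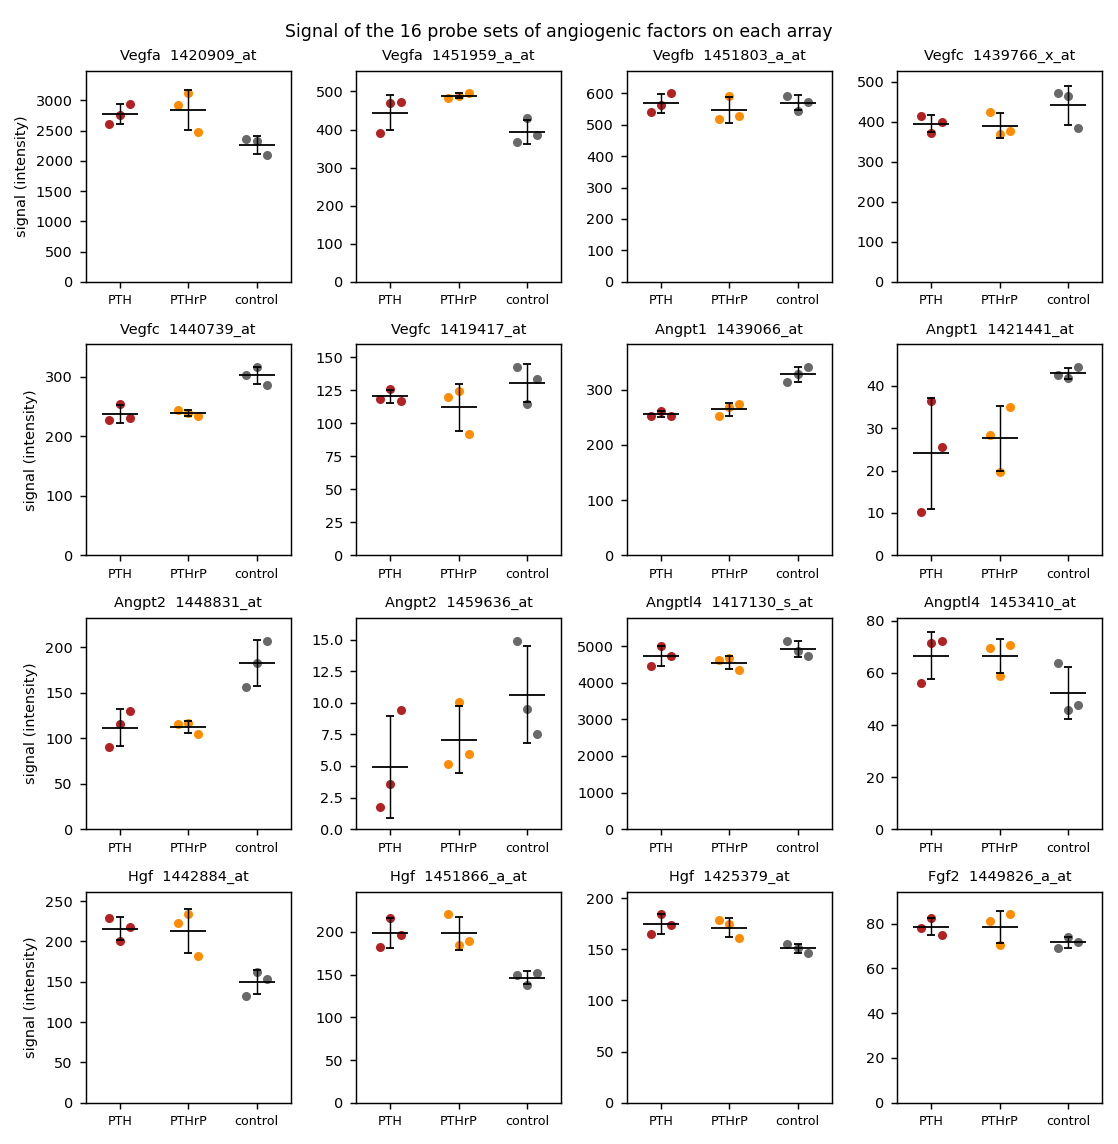
Signal (intensity, linear axis from 0) of each of the 16 probe sets on the 3 PTH, 3 PTHrP and 3 control arrays; points are arrays, horizontal bars are means and error bars are 1 SD (n = 3). The treated points of Vegfa 1420909_at and of all 3 Hgf probe sets lie above the controls, and those of Vegfc 1440739_at, both Angpt1 probe sets and Angpt2 1448831_at lie below them.

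Depth on an array is its signal: the median over probe sets lay between 48.2 and 52.6 on the 9 arrays, and precision is limited by having 3 arrays a group. A dim level of 29.0, the 40th percentile of the probe sets' mean signals, was used to describe weak signals, and 15 of the 16 member probe sets had a mean above it. Of 6 measured adipocyte markers (8 listed) all were above it, among them Adipoq with 14020 ± 702, 13341 ± 361 and 13618 ± 300 (SD, n = 3) in PTH, PTHrP and control cells. Of 10 endothelial markers 4 had a mean above it, and another 4 (Pecam1, Tie1, Vwf and Esam) were below it on every array. The actin control ratio of 3′ to 5′ signal, which rises as RNA is degraded, was 1.59 to 1.65 with PTH, 1.52 to 1.61 with PTHrP and 1.45 to 1.51 in controls, so it divided treated from control arrays. The same ratio for Gapdh did not divide them, at 0.980 to 0.988 with PTH, 0.931 to 0.975 with PTHrP and 0.950 to 0.985 in controls. The part of RNA quality in the results was not tested.

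Vegfa was read by 2 probe sets. On the brighter, 1420909_at, its signal was 2606, 2767 and 2941 on the PTH arrays, 2918, 3119 and 2478 on the PTHrP arrays, and 2362, 2330 and 2095 on the control arrays. All 6 treated arrays lay above the highest control. The mean was 2771 ± 167 with PTH and 2838 ± 328 with PTHrP, against 2262 ± 146 in controls (SD, n = 3 each). The log2 change, here and below a difference of log2(signal + 16), was 0.29 (SE 0.10) with PTH and 0.32 (SE 0.10) with PTHrP, a ratio of 1.22 and 1.25, at unadjusted p of 0.016 and 0.01 that missed the threshold once adjusted over all 45037 probe sets. Both peptides together gave 0.31 (95% interval 0.11 to 0.50, adjusted p = 0.0942), which passed without PTHrP replicate 3 (adjusted p = 0.0380).

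The second Vegfa probe set, 1451959_a_at, whose suffix marks probes shared by splice forms of 1 gene, read 392, 470 and 471 with PTH, 483, 489 and 495 with PTHrP, and 367, 430 and 385 in controls. PTHrP arrays lay above all controls, while PTH replicate 1 fell inside the control range. The log2 change was 0.17 with PTH (adjusted p = 0.446) and 0.31 with PTHrP (adjusted p = 0.142, limma). Over the 9 arrays the 2 Vegfa probe sets correlated at r = 0.71, a description of points that share their arrays and treatments. With the mean of both probe sets as the value of the gene, Vegfa had 0.23 with PTH (adjusted p = 0.143, limma) and 0.31 with PTHrP (0.0578). On that mean, both peptides together gave 0.27, which passed (0.0440).

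Vegfb, on its 1 probe set, had a mean of 568 ± 29.7 with PTH and 546 ± 41.1 with PTHrP, against 570 ± 23.9 in controls (SD, n = 3 each). Its 3 groups overlapped. The log2 change was -0.0054 with PTH (95% interval -0.17 to 0.16) and -0.06 with PTHrP (-0.23 to 0.10).

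Vegfc, the lymphatic growth factor gene, gave unequal readings on 3 probe sets. On 1440739_at the signal was 227, 255 and 232 with PTH, 244, 239 and 234 with PTHrP, and 303, 317 and 287 in controls. Every treated array was below every control. That probe set fell by 0.33 on the log2 scale with PTH (SE 0.06, adjusted p = 0.0385, limma) and by 0.32 with PTHrP (SE 0.06, adjusted p = 0.0445), to 0.80 of the control in both cases. Neither call survived leaving out any 1 of the 9 arrays (adjusted p 0.0559 to 0.155 with PTH, 0.0515 to 0.132 with PTHrP). Compared jointly with control, the peptides gave -0.32 (adjusted p = 0.0171), which was lost without PTH replicate 3 (0.0537), control replicate 1 (0.0618) or control replicate 2 (0.0760).

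The brightest Vegfc probe set, 1439766_x_at, whose suffix warns of probes that may match other sequences, read 414, 372 and 400 with PTH, 426, 369 and 378 with PTHrP, and 471, 465 and 386 in controls. Here control replicate 3 lay among the treated arrays, and the log2 change was -0.15 with PTH and -0.16 with PTHrP (adjusted p = 0.549 and 0.509, limma). The dimmest, 1419417_at, had -0.10 and -0.19 (adjusted p = 0.787 and 0.522). All 3 had lower means with either peptide than in controls, and the pairs correlated at r = 0.29 to 0.63 over the 9 arrays.

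Angpt1, coding for the vessel-steadying angiopoietin, had a signal of 252, 262 and 253 with PTH, 252, 268 and 273 with PTHrP, and 314, 329 and 341 in controls on its brighter probe set, 1439066_at. The 6 treated arrays lay within 252 and 273, below the lowest control. It fell by 0.34 on the log2 scale with PTH (SE 0.06, adjusted p = 0.0226) and by 0.29 with PTHrP (SE 0.06, adjusted p = 0.0408, limma), to 0.79 and 0.82 of the control. As this is a bulk measurement of a mixed culture, fewer cells that make the transcript and less transcript per cell cannot be told apart.

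The Angpt1 call with PTH was lost without PTH replicate 1, 2 or 3 or without control replicate 2 or 3 (adjusted p 0.0733 to 0.108), and the call with PTHrP was lost without any 1 of the 9 arrays (0.0660 to 0.141). Both peptides together gave -0.32 (adjusted p = 0.0121), lost without control replicate 2 (0.0550) or control replicate 3 (0.0573). The dim probe set of the gene, 1421441_at, read 10.3, 36.2 and 25.5 with PTH, 28.2, 19.6 and 34.9 with PTHrP, and 42.4, 41.8 and 44.4 in controls. Its treated values straddled the dim level and lay below all controls, with log2 changes of -0.61 and -0.45 that did not pass (adjusted p = 0.259 and 0.455). Averaging both probe sets gave -0.48 with PTH (adjusted p = 0.0794) and -0.37 with PTHrP (0.171), so the Angpt1 calls rest on the brighter probe set.

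Angpt2, coding for the angiopoietin that opposes Angpt1 on Tek, showed the largest change of any member probe set in both comparisons. On 1448831_at its signal was 89.8, 115 and 129 with PTH, 115, 116 and 105 with PTHrP, and 157, 183 and 207 in controls. No treated array came within the control range. It fell by 0.64 with PTH (SE 0.13, adjusted p = 0.0435, limma), to 0.64 of the control, and had a log2 change of -0.62 with PTHrP (SE 0.13, adjusted p = 0.0516). The PTH call held without control replicate 1 and was lost without any other single array (adjusted p 0.0634 to 0.133), while the PTHrP change passed without PTH replicate 1 (0.0345). Together the peptides gave -0.63 (adjusted p = 0.02), lost without control replicate 2 (0.0803) or control replicate 3 (0.0874). The other Angpt2 probe set, 1459636_at, averaged 4.91 ± 4.03, 7.06 ± 2.65 and 10.6 ± 3.85 with PTH, with PTHrP and in controls, below the dim level in each group, and measured no change that can be read. Averaging both Angpt2 probe sets gave -0.50 with PTH (adjusted p = 0.0449, limma), -0.41 with PTHrP (0.0933) and -0.46 together (0.0284).

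Markers of cells that surround vessels did not move one way. The summed signal of 8 pericyte and smooth muscle markers was 16476 to 16686 with PTH and 15824 to 16676 with PTHrP. In controls it was 17581 to 17917. With each peptide 2 of the 8 fell, where 1.97% of all genes fell with PTH and 1.81% with PTHrP. The 2 markers were Pdgfrb, a pericyte receptor gene (-0.31 and -0.35), and Myh11, a smooth muscle myosin gene (-0.38 and -0.45). The other 6 did not pass. Of those 6, Rgs5, Cspg4, Kcnj8 and Abcc9 had log2 changes above 0 with each peptide (0.23, 0.05, 0.46 and 0.14 with PTH) and Acta2 and Notch3 below it (-0.05 and -0.02 with PTH). The median of the 8 was 0.02 with PTH and 0.01 with PTHrP, against -0.0027 and -0.0050 over all genes, and Acta2 made up most of the summed signal. Of the 8 markers none was below the dim level on every array. The sum over 7 preadipocyte and fibroblast markers was 14670 to 15369 with PTH and 14451 to 15755 with PTHrP, against 15409 to 16257 in controls; 1 of them, Lum, fell with PTH (-0.37, adjusted p = 0.0310). The sum over 8 macrophage markers, of which Itgam and C1qa were below the dim level on every array, was 1101 to 1252, 1088 to 1219 and 1033 to 1143, and that over 10 endothelial markers was 419 to 476, 444 to 520 and 490 to 543 in PTH, PTHrP and control cells. The part of these cells in the changes of Angpt1, Angpt2 and Vegfc was not tested.

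Hgf, coding for the growth factor that signals through Met, was read by 3 probe sets that moved alike. On 1442884_at the signal was 229, 201 and 218 with PTH, 223, 234 and 182 with PTHrP, and 133, 162 and 154 in controls. On 1451866_a_at it was 183, 217 and 196 with PTH, 221, 185 and 189 with PTHrP, and 150, 138 and 152 in controls. On 1425379_at it was 165, 184 and 174 with PTH, 179, 175 and 161 with PTHrP, and 155, 152 and 146 in controls. On all 3 probe sets each treated array exceeded each control array, and the pairs of probe sets correlated at r = 0.76 to 0.91 over the 9 arrays.

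With PTH the log2 changes of Hgf were 0.49, 0.40 and 0.19 in that order (adjusted p = 0.0544, 0.0559 and 0.201, limma), and with PTHrP they were 0.46, 0.40 and 0.16 (0.0716, 0.0634 and 0.289). The first passed with PTH without PTHrP replicate 3 (0.0335) and with PTHrP without PTHrP replicate 3 (0.0393), and the second passed with PTH without PTHrP replicate 1 (0.0484). When both peptides were compared together with control, 1442884_at rose by 0.48 (SE 0.09, adjusted p = 0.0268) and 1451866_a_at by 0.40 (SE 0.08, adjusted p = 0.0256), a ratio of 1.39 and 1.32, and 1425379_at had a change of 0.18 (adjusted p = 0.142). The call of 1442884_at was kept only without PTH replicate 2 or PTHrP replicate 3, and was lost without any other single array (0.0532 to 0.0962). That of 1451866_a_at was lost without PTH replicate 2 or 3 or any 1 control array (0.0544 to 0.106). With the mean of the 3 probe sets as the value of the gene, Hgf passed with each peptide (0.36 with PTH, adjusted p = 0.0131; 0.34 with PTHrP, 0.0164).

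Angptl4 had a bright probe set, 1417130_s_at, with 4442, 4993 and 4725 on PTH arrays, 4621, 4668 and 4345 on PTHrP arrays, and 5150, 4872 and 4740 on control arrays. PTHrP arrays lay below all controls and PTH arrays did not. The log2 change was -0.06 with PTH (95% interval -0.21 to 0.09, adjusted p = 0.768) and -0.11 with PTHrP (-0.27 to 0.04, adjusted p = 0.519, limma). Its dim probe set, 1453410_at, pointed the other way, at 66.7 ± 9.04 and 66.5 ± 6.56 against 52.4 ± 9.97 (SD, n = 3 each), a log2 change of 0.28 with each peptide (adjusted p = 0.350 and 0.368). The pair correlated at r = -0.10 over the 9 arrays, and the mean of both gave 0.11 with PTH and 0.08 with PTHrP, so no direction is given for the gene.

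Fgf2, on its 1 probe set, read 78.1, 82.6 and 75 with PTH, 80.9, 70.2 and 84.2 with PTHrP, and 69.0, 74.0 and 71.6 in controls. The PTH arrays lay just above the controls and the PTHrP arrays overlapped them. The log2 change was 0.11 with each peptide (95% interval -0.05 to 0.27 and -0.06 to 0.27, adjusted p = 0.550 and 0.588, limma).

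**Figure D2:**
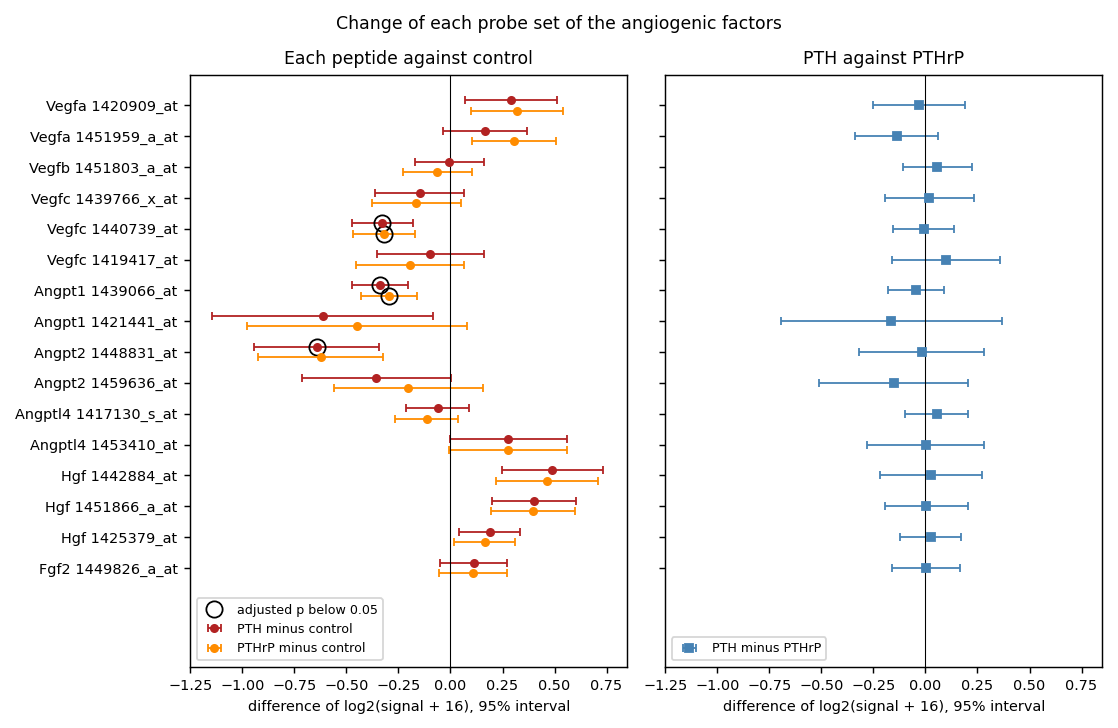
Left, change of each probe set with PTH or PTHrP against control; right, PTH minus PTHrP; points are differences of log2(signal + 16), bars are 95% intervals from limma, and rings mark adjusted p below 0.05. Rings stand on 3 probe sets with PTH and 2 with PTHrP, all of them lower than control, and every interval for PTH minus PTHrP spans 0.

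Over the 16 member probe sets, 0 rose and 3 fell with PTH at an adjusted p below 0.05, against 1.34% and 1.37% of all probe sets, and 13 did not pass. With PTHrP 0 rose and 2 fell, against 1.19% and 1.2% of all, and 14 did not pass. With both peptides together 2 rose and 3 fell, against 2% and 2.13%, and 11 did not pass. At an unadjusted p below 0.05 there were 8 member probe sets with PTH, 8 with PTHrP and 10 together, out of 6619, 6311 and 7408 among all probe sets. The comparisons with PTH and with PTHrP share their 3 control arrays, so their values are set side by side and not counted as 2 sources.

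Counting each gene by its brightest probe set, 2 of 8 genes fell with PTH (Angpt1 and Angpt2) and 1 with PTHrP (Angpt1), where 1.97% and 1.81% of 18193 genes fell; 0 rose, where 1.82% and 1.57% of genes did. Together 1 rose (Hgf) and 2 fell (Angpt1 and Angpt2), beside 2.62% and 3.11% of all genes. The 3 PTH arrays lay wholly above the controls on 5 member probe sets and wholly below them on 4, where 10.5% and 11% of all probe sets did so. For PTHrP it was 5 and 5, where 8.93% and 9.43% did. With each peptide the higher ones included all 3 Hgf probe sets and the lower ones both Angpt1 probe sets, so these are not counts of separate genes. The median log2 change of the 16 was -0.03 with PTH and -0.09 with PTHrP, against -0.0054 and -0.00061 over all probe sets, since members went both ways. The median size of the change, without its sign, was 0.28 with PTH and 0.29 with PTHrP, against 0.10 over all probe sets in both comparisons. The members and their background differ in signal: 15 of the 16 member probe sets had a mean above the dim level, against 27022 of all 45037. The members were also chosen with earlier results of these data known, which bears on the shares above too. The part of signal and choice in the larger median was not tested, so it is given as a description.

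**Figure D3:**
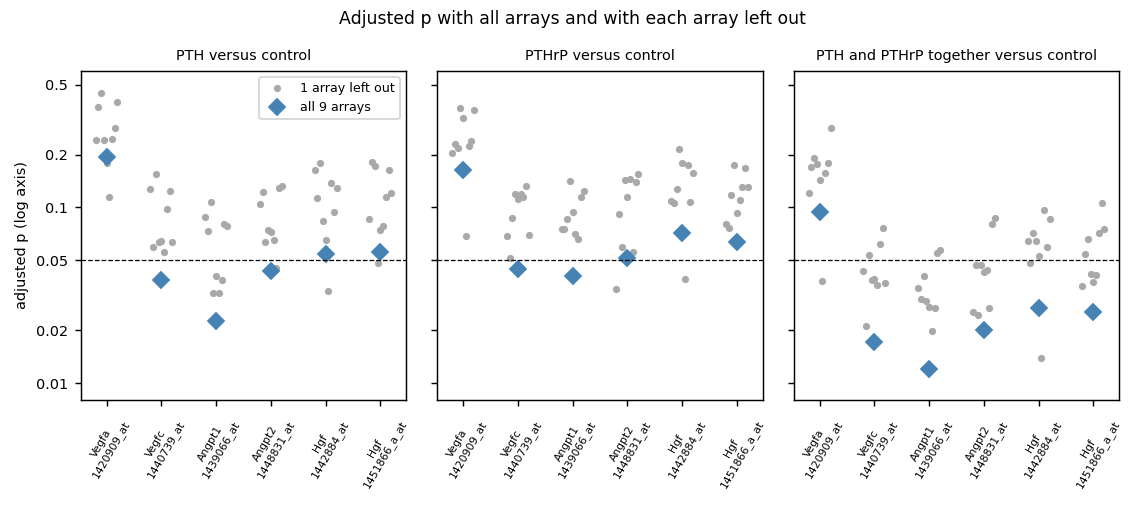
Adjusted p (log axis) of 6 member probe sets in 3 comparisons, with all 9 arrays (diamonds) and with each array left out in turn (grey points); the dashed line is 0.05. For Vegfc 1440739_at every grey point lies above the line with PTH and with PTHrP, and with both peptides together most points of Angpt1 and Angpt2 lie under it.

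PTH and PTHrP are distinct peptides that share the amino-terminal region by which they bind their receptor, and they were given at the same mass concentration and time. The 16 probe sets were compared between them, and 0 passed (limma, adjusted over all probe sets, where 0% were called; each of the 16 had adjusted p = 1). At an unadjusted p below 0.05 there were 0 of the 16, and 1911 of all probe sets. The largest difference in a probe set above the dim level was that of Angpt1 1421441_at, at -0.16 (95% interval -0.69 to 0.37). For Vegfa 1451959_a_at the 3 PTH arrays, at 392 to 471, lay below the 3 PTHrP arrays, at 483 to 495, a difference of -0.14 (-0.34 to 0.06, unadjusted p = 0.151), and the groups did not overlap for 9.16% of all probe sets. For Vegfa 1420909_at the difference was -0.03 (-0.25 to 0.19), for Angpt1 1439066_at -0.04 (-0.18 to 0.09), for Angpt2 1448831_at -0.02 (-0.32 to 0.28) and for Hgf 1442884_at 0.03 (-0.22 to 0.27). These intervals allow differences of either sign nearly as large as some of the changes from control, so the test does not show that the peptides act alike.

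Some other angiogenic ligands changed by more, on the log2 scale, than any member. The lists that follow count each gene by its brightest probe set, so the shares of all genes given above are their background. Of 27 measured (28 listed), 3 rose and 2 fell with each peptide and 22 did not pass, with a median log2 change of -0.06 with PTH and 0.01 with PTHrP, against -0.0027 and -0.0050 over all genes. Il6, coding for interleukin 6, had the largest rise, with 1140 ± 77.8 with PTH and 1067 ± 30.4 with PTHrP, against 454 ± 20.4 in controls (1.30 and 1.21). Apln, coding for the vessel peptide apelin, had 1545 ± 109 with PTH and 1680 ± 114 with PTHrP, against 846 ± 120 in controls (0.86 and 0.98). Fgf10, an epithelial and fat growth factor gene, had 516 ± 15.2 and 490 ± 18 against 323 ± 13.9 (SD, n = 3 each), a rise of 0.65 with PTH (adjusted p = 0.0012) and 0.58 with PTHrP (0.0021, limma). Adm, coding for the vasodilator adrenomedullin, fell by 0.92 and 0.88, to 1737 ± 101 with PTH and 1787 ± 44.0 with PTHrP, against 3315 ± 326 in controls. Ccn1, a matrix protein gene, was the other that fell (-0.52 and -0.50).

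Of 19 receptor and co-receptor genes, 16 had a mean above the dim level, and 1 rose, 0 fell and 18 did not pass with each peptide. That gene was Sdc1, coding for syndecan 1, a cell surface co-receptor that binds growth factors (0.53 and 0.52, adjusted p = 0.0021 and 0.0022). Kdr read 104 ± 21.9 with PTH and 124 ± 22.5 with PTHrP, against 150 ± 15.3 in controls (-0.48 and -0.26, adjusted p = 0.181 and 0.534, limma). Flt1 had changes of -0.15 and -0.21 (adjusted p = 0.542 and 0.382), and Met, the HGF receptor, had 0.06 and 0.07 (adjusted p = 0.750 and 0.714).

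Among inhibitors of angiogenesis, of 14 measured (15 listed) 0 rose and 3 fell with each peptide, and 11 did not pass. Spry1, coding for an inhibitor of growth factor signalling, had 367 ± 18.9 with PTH and 372 ± 24.5 with PTHrP, against 614 ± 58.2 in controls, a fall of 0.71 and 0.70 on the log2 scale. Thbs1, coding for thrombospondin 1, fell by 0.41 and 0.36, and Adamts1, coding for a protease that binds VEGF, fell by 0.38 and 0.37 (adjusted p = 0.0098 and 0.0121, limma). The Adamts1 call was lost without PTH replicate 2 (0.0524) or PTH replicate 3 (0.0605) in the PTH comparison, and without PTHrP replicate 1 (0.0520) in the PTHrP comparison. The median log2 change of the list was -0.18 with PTH and -0.13 with PTHrP, against -0.0027 and -0.0050 over all genes.

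Of 18 measured genes of proteases that process or release these factors, and of their inhibitors (19 listed), each peptide gave 3 that rose, 1 that fell and 14 that did not pass. Pcsk5, coding for a convertase able to cleave growth factor precursors, had 1107 ± 37.9 with PTH and 1122 ± 91.7 with PTHrP, against 685 ± 49.0 in controls (0.68 and 0.70, adjusted p = 0.0041 and 0.0036). Adamts3, coding for the protease that matures VEGF-C, had 72.2 ± 5.42 and 75.6 ± 10.5 against 46.1 ± 4.93 (SD, n = 3 each), a rise of 0.51 with PTH (adjusted p = 0.0377) and 0.56 with PTHrP (0.0270). Plau, coding for urokinase, which can activate the HGF precursor, rose by 0.43 and 0.47, and Plat, coding for tissue plasminogen activator, fell by 0.31 and 0.26. The calls of Adamts3, Plau and Plat were made on their brightest probe set, and none of the 3 passed with the mean of probe sets, which gave 0.33 and 0.34 for Adamts3 (adjusted p = 0.352 and 0.341), 0.17 and 0.16 for Plau (0.275 and 0.318), and -0.29 and -0.31 for Plat (0.0848 and 0.0652).

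Several of these protease calls also depended on single arrays. The Adamts3 call with PTH was lost without any 1 array but PTHrP replicate 2 or 3 (adjusted p 0.0539 to 0.148), and with PTHrP it was lost without PTH replicate 2 or 3, PTHrP replicate 1 or 2, or control replicate 2 or 3 (0.0537 to 0.0956). Plau was lost with PTH without PTH replicate 2 or 3 or control replicate 1 or 3 (0.0633 to 0.0994), and with PTHrP without control replicate 1 or 3 (0.0552 and 0.0571). Plat was lost with PTH without any 1 PTH array or control replicate 2 or 3 (0.0690 to 0.0993), and with PTHrP without any 1 of the 9 arrays (0.0776 to 0.133).

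Of 20 genes that regulate the members, 2 rose and 0 fell with each peptide, and 18 did not pass. Both were prolyl hydroxylases that mark hypoxia-inducible factors for breakdown and are themselves induced by low oxygen: Egln3 had 2464 ± 158 with PTH and 2341 ± 37.9 with PTHrP, against 1597 ± 168 in controls (0.62 and 0.55), and Egln1 rose by 0.38 and 0.37. Transcripts of the factors themselves gave no call, with Hif1a at -0.03 and 0.0066 (adjusted p = 0.907 and 0.986) and Epas1 at 0.25 and 0.27 (adjusted p = 0.130 and 0.107, limma). Pparg had 0.0054 and -0.05 (adjusted p = 0.985 and 0.846), and Ppargc1a, a coactivator known to raise Vegfa in muscle, had 0.16 and 0.14 (adjusted p = 0.383 and 0.476).

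Of the 15 listed hypoxia response genes other than Vegfa, 4 rose and 0 fell with each peptide, and 11 did not pass. Their median log2 change was 0.11 with PTH and 0.09 with PTHrP. The list does not hold every gene that responds to low oxygen. Adm, counted above with the ligands, was not on it and fell with each peptide (-0.92 and -0.88). Ndrg1, a stress-response gene, had 1427 ± 59.7 with PTH and 1388 ± 64.7 with PTHrP, against 788 ± 71.9 in controls (0.85 and 0.81, adjusted p = 0.0014 and 0.0017, limma). Besides Egln3, which is on both lists, Ddit4 (0.50 and 0.55) and the lipid droplet gene Hilpda (0.48 and 0.47) rose. Of 12 measured PPAR target genes (14 listed) 1 rose with each peptide, Cpt1a (0.48 and 0.48), which brings fatty acids into mitochondria, and 11 did not pass; the median was 0.04 and 0.02.

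Some of these calls were lost without single arrays. Egln1 was lost with PTH without any 1 PTH array or control replicate 2 (adjusted p 0.0589 to 0.0901), and with PTHrP without PTH replicate 3, any 1 PTHrP array, or control replicate 2 or 3 (0.0512 to 0.0854). Egln3 was lost with PTHrP without PTHrP replicate 1 or 2 or control replicate 3 (0.0537 to 0.0613). Hilpda was lost with PTH without PTH replicate 2 or 3 or control replicate 2 or 3 (0.0592 to 0.0805), and with PTHrP without PTHrP replicate 1 or 2 or control replicate 2 or 3 (0.0642 to 0.0874). Cpt1a was lost with PTH without PTH replicate 3 (0.0507).

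**Figure D4:**
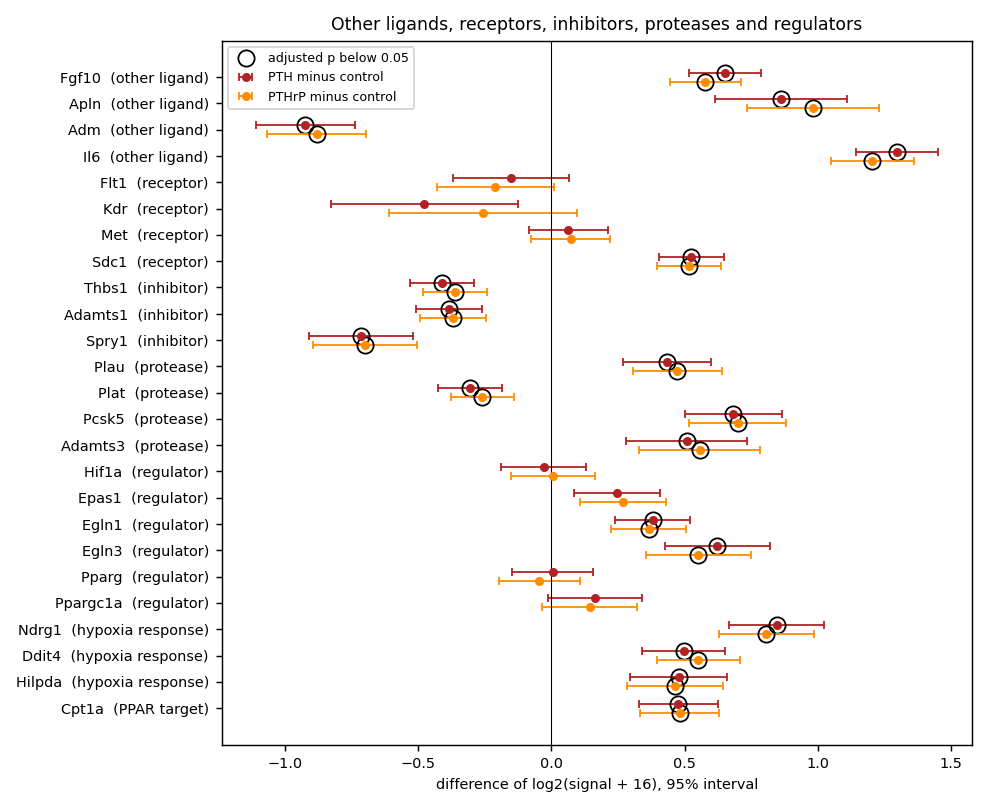
Change with PTH or PTHrP against control of ligands other than the members, receptors, inhibitors, proteases, regulators, hypoxia response genes and a PPAR target; points are differences of log2(signal + 16) of the brightest probe set, bars are 95% intervals, and rings mark adjusted p below 0.05. Il6, Apln, Fgf10 and Sdc1 lie right of 0 and Adm, Spry1, Thbs1 and Adamts1 left of it with both peptides, while the intervals of Hif1a, Pparg, Met and Flt1 span 0.

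The patterns of Angpt1 and Angpt2 over the 9 arrays were set beside those of 12129 other genes above the dim level. For Angpt2 the most alike were Rftn2 (r = 0.98), Slc12a4 (0.98) and Mapk12 (0.97), and for Angpt1 they were Dipk1a (0.99), Tap2 (0.99) and Axl (0.98). Of these 6 genes, 3 fell with both peptides, namely Rftn2 (-0.44 with PTH, -0.42 with PTHrP), Dipk1a (-0.40 and -0.31) and Tap2 (-0.32 and -0.32); Axl fell with PTH alone at the threshold (-0.37, and -0.32 with PTHrP at adjusted p = 0.0538, limma). The points share treatment and array, and the coefficients are given as a description with n = 9 arrays. As the 6 genes were picked by likeness to 2 falling genes on these same arrays, their lower values with the peptides come with that choice and are no separate result.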

How the data were processed

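Biotin-cRNA of the 9 samples was hybridised to the arrays, per the labels' protocols. The values are the intensities per probe set deposited by the authors; how they were summarised, background-corrected and scaled: not given in the sources used here. Their range is that of linear values. Arrays were not quantile-normalised: values of equal rank differed by up to 10.4% where the mean exceeded 50.

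Of 45101 probe sets, 64 array controls were left out; 34945 had 1 symbol, 932 several and 9160 none. Symbols were updated by Entrez ID (18193 genes). limma 3.58.1 (R 4.3.3, statmod 1.5.0) was fitted to log2(intensity + 16) of all 45037 probe sets with a mean per group; tests were two-sided, with Benjamini-Hochberg adjustment over all probe sets and a threshold of 0.05. Plots used matplotlib 3.10.9 (Python 3.11.15).

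The members and lists were chosen with earlier results of these data known. Named beside the members are, per list, up to 4 genes that passed with the largest change, 7 regulators and receptors always (Pparg, Hif1a, Epas1, Ppargc1a, Kdr, Flt1 and Met), and the 3 genes most correlated with each member gene whose brightest probe set passed; Ccn1, Pdgfrb, Myh11, Lum and Adipoq were named after their values were seen. Lymphocyte markers were low, with 6 of 7 below the dim level on every array. On simulated data with normal noise (45037 probe sets, 200 changed, all above the dim level), changes of 0.5 and 1 were found in 47% and 92% of cases for PTH, 52% and 89% for PTHrP, and 67% and 97% together. False calls were 11 among 150, 6 among 147 and 15 among 179. The real data gave more calls than this setting, so the rates check the code and are not rates for these arrays. Alternatives covered normalisation, pseudocount, dim probe sets, the gene value, the variance, array weights, the replicate block, the groups fitted, each array left out and the threshold.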

Additional observations from a re-analysis of the deposited data

How the results depend on the processing

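Counts of calls depended on the settings, the 16 members included. With all settings as reported, 1217, 1076 and 1860 probe sets passed with PTH, with PTHrP and with both together, of them 3, 2 and 5 members. Leaving out each array in turn gave 398 to 1090, 468 to 795 and 860 to 1588 probe sets, and 0 to 2, 0 to 1 and 0 to 6 members. Leaving out the dimmest 40% gave 2231, 1998 and 3093 probe sets and 5 members with each peptide. A pseudocount of 64 gave 2214, 1996 and 3017, and 5 members with each peptide; a pseudocount of 1 gave 1 and 0 members. A trended and robust variance gave 2611, 2375 and 3384 probe sets, and 6 and 7 members. Fitting only the groups compared gave 695 and 365 probe sets and 0 members with either. An adjusted p below 0.01 gave 380, 364 and 657 probe sets and 0 members in each comparison. Median centring gave 1 member with PTH and 0 with PTHrP; quantile normalization, scaling to the 75th percentile, array weights and the mean of probe sets each gave 1 with PTHrP. The brightest probe set per gene and the mean of probe sets each gave 3 members for both together, with fewer features tested, and the mean gave 1109 calls. With the mean, the 3 were Vegfa (adjusted p = 0.0440, limma), Angpt2 (0.0284) and Hgf (0.0056), while Angpt1 did not pass (0.0588). The cause of the other shifts was not tested.

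The replicate number as a block gave 518, 467 and 949 probe sets and 0, 0 and 3 members. Same-numbered arrays deviated from their group means with r between -0.20 and 0.17, and own numbers were closest in 4 of 18 cases, so the numbers were not taken as pairs. PTH against PTHrP gave 0 calls, except 1 probe set, no member, with a pseudocount of 1 and 1 without PTHrP replicate 1.

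Signs changed for small differences that passed no test. With PTH, Vegfb became 0.011 with median centring, 0.00092 with scaling to the 75th percentile and 0.0051 with array weights. With the mean of probe sets, Angptl4 became 0.11 with PTH, 0.081 with PTHrP and 0.095 together, Met -0.14, -0.021 and -0.078, and Hif1a 0.019 together. For PTH minus PTHrP, Vegfc 1440739_at became 0.0095 with median centring, and Angptl4 1453410_at -0.0034 with scaling to the 75th percentile and -0.00037 with a pseudocount of 1. With array weights, Angpt2 1448831_at became 0.018, Hgf 1451866_a_at -0.019 and Fgf2 -0.0088. Leaving out each array in turn moved Vegfb from -0.045 to 0.027, Pparg from -0.020 to 0.055 and Hif1a from -0.083 to 0.019 with PTH, Hif1a from -0.031 to 0.044 with PTHrP, and Pparg from -0.041 to 0.0050 and Hif1a from -0.038 to 0.013 with both together. The same gave, for PTH minus PTHrP, ranges of -0.12 to 0.041 for Vegfa 1420909_at, -0.021 to 0.079 for Vegfc 1439766_x_at, -0.056 to 0.022 for Vegfc 1440739_at, -0.022 to 0.17 for Vegfc 1419417_at, -0.39 to 0.11 for Angpt1 1421441_at, -0.12 to 0.11 for Angpt2 1448831_at, -0.067 to 0.094 for Angptl4 1453410_at, -0.060 to 0.048 for Fgf2, and -0.075 to 0.093, -0.056 to 0.079 and -0.017 to 0.060 for Hgf 1442884_at, 1451866_a_at and 1425379_at. Of 2990 values of single probe sets under the alternatives, 2669 kept direction and side of the threshold, 216 lost a call, 52 gained one and 53 changed sign. They include genes other than the members and comparisons with no call to lose, such as PTH against PTHrP. The share kept therefore does not measure how well the member calls held. The number of arrays, 3 per group, limits what can be called.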
